A study of Mus musculus with 48 samples.

Results

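Broad H3K4me3 domains of control neurons are the longest stretches that carry trimethylated lysine 4 of histone H3 in hippocampal neurons of control mice. Overlapping H3K4me3 peaks of the 4 libraries labelled control were merged on chromosomes 1 to 19, which gave 59935 regions, of which 30258 had a peak in all 4 libraries. A region was a broad domain when its peaks covered at least 4000 bp on average per control library. This held for 1610 regions, 5.32% of the 30258, and they spanned 9.5 Mb. The control H3K4me3 lengths chose the domains, so those lengths and the H3K4me3 difference between genotypes at these domains are given below as a description without a test.

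The study compared mice with a conditional knockout of Setd1b, labelled Setd1b cKO, with mice labelled Control. All were adults aged 4 to 6 months of the C57BL/6J strain. Setd1b encodes an enzyme that methylates H3K4. Chromatin was immunoprecipitated from fixed nuclei of hippocampal CA neurons sorted by flow cytometry, and RNA was sequenced from CA neurons and from the whole CA region. H3K4me3 and H3K4me1 each had 4 libraries labelled control and 4 labelled cKO, H3K27ac had 3 and 4, and H3K9ac had 4 and 3. Neuron RNA had 3 and 3, and whole CA RNA 6 and 6. Each series of libraries came from nuclei or tissue of unstated numbers of animals, and the Cre line behind the knockout is not named in the labels. Nothing in the labels says that replicates were separate mice, so each p-value below measures the spread between these libraries, which may be technical.

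H3K4me3 marks the starts of active genes, where complexes that contain SET1 or MLL enzymes deposit it. In most cells it forms a narrow peak beside the start, but at a small set of genes it extends far into the gene, and such broad domains are known for covering genes that define a cell type. H3K4me1 typically flanks H3K4me3 and marks enhancers, and H3K27ac and H3K9ac are acetylation marks of active promoters, with H3K27ac also at active enhancers.

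Most broad domains lay on the start of a gene, and the promoters under them differed widely in sequence. The windows below run from 250 bases before to 50 bases after a start listed in RefSeq (GRCm38.p6), printed 5′ to 3′ on the strand of the gene with each CG in capitals. They were picked to show the span from CG-poor to CG-rich promoters among domains described below, and Neurod6 was added after its values were seen.
Neurod6, chr6:55681214-55681513, minus strand: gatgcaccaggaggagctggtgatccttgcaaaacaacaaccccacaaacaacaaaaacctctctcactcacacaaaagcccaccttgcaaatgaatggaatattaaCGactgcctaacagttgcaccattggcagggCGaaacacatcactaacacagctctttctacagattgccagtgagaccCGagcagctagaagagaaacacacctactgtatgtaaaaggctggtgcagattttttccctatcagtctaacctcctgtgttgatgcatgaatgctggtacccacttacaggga
Arpp21, chr9:112233673-112233972, minus strand: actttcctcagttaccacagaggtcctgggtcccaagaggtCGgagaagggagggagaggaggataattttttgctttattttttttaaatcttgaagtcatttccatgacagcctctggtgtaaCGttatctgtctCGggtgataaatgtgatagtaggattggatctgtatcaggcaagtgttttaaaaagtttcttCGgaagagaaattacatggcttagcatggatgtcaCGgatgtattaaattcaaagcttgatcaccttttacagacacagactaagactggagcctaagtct
Zeb2, chr2:45117393-45117692, minus strand: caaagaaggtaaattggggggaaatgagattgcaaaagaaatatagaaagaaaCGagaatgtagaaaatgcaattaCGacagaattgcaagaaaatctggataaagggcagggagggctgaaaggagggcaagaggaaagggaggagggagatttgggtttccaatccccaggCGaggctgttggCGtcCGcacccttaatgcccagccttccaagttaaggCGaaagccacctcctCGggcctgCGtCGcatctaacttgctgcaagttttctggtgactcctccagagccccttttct
Epha4, chr1:77515039-77515338, minus strand: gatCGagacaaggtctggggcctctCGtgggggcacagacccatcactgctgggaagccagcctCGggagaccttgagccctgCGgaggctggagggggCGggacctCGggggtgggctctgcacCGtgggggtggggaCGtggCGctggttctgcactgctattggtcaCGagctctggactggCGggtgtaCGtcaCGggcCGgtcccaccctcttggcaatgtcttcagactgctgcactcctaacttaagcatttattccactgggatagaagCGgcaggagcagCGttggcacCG
Atp5g2, chr15:102670998-102671297, minus strand: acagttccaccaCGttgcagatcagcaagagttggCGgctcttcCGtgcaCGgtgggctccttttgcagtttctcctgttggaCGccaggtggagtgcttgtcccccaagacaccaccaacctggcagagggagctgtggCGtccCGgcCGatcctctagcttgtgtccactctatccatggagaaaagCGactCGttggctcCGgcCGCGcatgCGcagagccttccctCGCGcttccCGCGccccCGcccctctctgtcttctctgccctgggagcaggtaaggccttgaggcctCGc
Atp2b1, chr10:98914392-98914691, plus strand: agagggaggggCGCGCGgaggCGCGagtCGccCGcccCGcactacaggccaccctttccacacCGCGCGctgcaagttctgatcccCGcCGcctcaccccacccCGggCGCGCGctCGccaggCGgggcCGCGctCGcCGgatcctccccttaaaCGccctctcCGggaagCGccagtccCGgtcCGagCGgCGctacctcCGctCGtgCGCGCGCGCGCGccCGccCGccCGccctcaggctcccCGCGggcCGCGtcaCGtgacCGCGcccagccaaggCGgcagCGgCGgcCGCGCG

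The Neurod6 window held 3 CG pairs and the Arpp21 window 5, while the Atp2b1 window held 54. The windows of Zeb2, Epha4 and Atp5g2 held 9, 17 and 20. Arpp21 has 9 listed starts, Zeb2 has 4 and Atp2b1 has 2, and 1 of each is shown. Neurod6 encodes a transcription factor of excitatory neurons, Arpp21 a cAMP-regulated phosphoprotein, Zeb2 a zinc finger repressor, Epha4 an ephrin receptor, Atp2b1 a calcium pump of the plasma membrane and Atp5g2 a subunit of mitochondrial ATP synthase. RefSeq listed a promoter sequence for 1186 of the 1463 genes with a start in a domain, at 1515 starts. These windows held a median of 23 CG pairs, close to the 24 at starts under H3K4me3 regions of 2000 to under 4000 bp and above the 3 at starts under no region. Fewer than 5 CG pairs were found in 4.55% of the domain windows, against 2.16% for the regions of 2000 to under 4000 bp, 67.4% for starts under no region and 27.5% of all listed starts. The letters TATAAA on either strand occurred in the 250 bases before the start in 6.14% of the domain windows and in 11.7% of all windows.

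The domains lay at the starts of protein-coding genes more often than H3K4me3 regions in general. A start of a protein-coding gene lay in 1078 domains (67.0%), against 33.1% of all 30258 regions. Another 292 domains (18.1%, against 7.29%) held one end of a protein-coding gene for which no start is listed in the table used, among them Grin2b and Camk2a. Domains wholly inside a protein-coding gene numbered 170 (10.6%, against 9074 of the 30258 regions), 48 (2.98%, against 2.81%) held only the start of a non-coding gene, and 22 (1.37%, against 26.8%) touched no gene. No start was listed in 452 domains, 710 held 1 start, 289 held 2 and 159 held 3 or more.

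Domain length fell off steeply. The median domain was 5372 bp wide, with a range of 4057 to 29096 bp, and its control libraries covered a median of 5063 bp on average. Only 414 domains reached a mean control length of 6000 bp and 47 reached 10000 bp. Just inside the threshold lay a domain inside Zbtb16 (4002.0 bp), 5430416N02Rik (4002.2 bp) and Zbtb45 (4002.5 bp), and just outside it lay Ccnt2 (3998.2 bp), Slc25a25 (3996.8 bp) and a region inside Nfasc (3995.2 bp). In the authors' peak lists the highest fold enrichment of a peak in a domain had a median of 49.1 to 53.3 over the 4 control libraries. It was close to that for regions of 2000 to under 4000 bp (47.4 to 51.8), and lower for regions of 1000 to under 2000 bp (30.3 to 33.2) and under 1000 bp (5.99 to 6.2).

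In the 792 domains with exactly 1 coding start, the domain extended mostly into the gene. The median reach was 1122 bp before the start and 4165 bp after it, and 750 of these domains (94.7%) were longer on the gene side.

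Members of several gene lists had a start in a domain. Over all 16457 protein-coding genes with a listed start on chromosomes 1 to 19 this held for 7.21%, and for each list the share below is of its members with such a start. The lists were chosen with earlier results of these data known, and no difference between shares was tested. Of 40 transcription factors and regulators of pyramidal neurons, 25 had a start in a domain (73.5%) and 5 more had an end in one. The 25 included Neurod2, Neurod6, Bcl11b, Tbr1, Mef2c, Zbtb18, Emx1, Fezf2 and Myt1l. A start lay in a domain for 10 of 30 synaptic plasticity genes (Gria2, Grin1, Dlg4, Homer1, Bdnf, Ntrk2, Nrgn, Lrrtm1 and others; 66.7%), with 9 more by an end. It did for 9 of 20 immediate early genes (Fos, Jun, Egr2, Nr4a1, Npas4 and others; 56.2%), with 3 more by an end. For ion channels the counts were 8 of 22 (8 of the 16 with a listed start) and 4 more, and for markers of hippocampal fields 5 of 19 (41.7%) and 1 more. None of 9 astrocyte, 10 oligodendrocyte, 9 microglial and 9 endothelial or mural markers had a start in a domain, and only Sox9, a transcription factor of astrocytes, had an end in one. A start on chromosomes 1 to 19 was listed for only 7, 6, 5 and 6 of these markers. Gad1, Slc32a1 and Cck were the 3 of 14 interneuron markers with a start in a domain (3 of the 12 with a listed start). General housekeeping genes were there in 4 of 18 cases (Gapdh, Tbp, Ubb, Tuba1a; 30.8%). Among 17 genes of the H3K4 methyltransferase complexes, Kmt2a and Kmt2d had a start in a domain (18.2%) and Setd1b an end.

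Setd1b, the targeted gene, was not lower in the libraries labelled cKO, so the deposited gene counts do not show the deletion and the groups are called by their labels throughout. In neuron RNA it was at 65.5, 50.2 and 47.8 CPM (the counts of a gene scaled to library size) in the libraries labelled control and at 60.2, 62.0 and 71.6 in those labelled cKO. The difference was 0.25 on the log2 scale (SE 0.13, edgeR adjusted p = 0.36). In whole CA its median was 37.9 CPM (29.3 to 54.6) in the libraries labelled control and 57.4 (53.2 to 68.0) in those labelled cKO. That is higher by 0.59 (SE 0.11, edgeR adjusted p = 0.0041), a call that replicates 1 to 3 alone did not give (0.49, edgeR adjusted p = 0.099) and that held without any 1 library (0.00011 to 0.011). The counts cover the whole gene, and the labels do not give the deleted part.

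The libraries were deep and of similar size between genotypes. ChIP libraries held 24.38 to 27.83 M tags (M for mega) for H3K4me3, 29.65 to 35.51 for H3K4me1, 37.0 to 41.63 for H3K27ac and 35.72 to 38.98 for H3K9ac, and RNA libraries 55.7 to 69.1 M reads for neurons and 14.9 to 20.1 M for whole CA. All ChIP libraries of a genotype shared 1 input library, of 31.26 M tags for cKO and 28.76 M tags for control, so an effect of the input cannot be told apart from one of the genotype. Peaks were called after the larger of ChIP and input was scaled down. For H3K27ac and H3K9ac this left 31.26 M tags in each library labelled cKO and 28.76 M tags in each labelled control, and for H3K4me1 30.98 to 31.26 and 28.76 M tags. For H3K4me3 it left 24.38 to 27.83 and 25.98 to 26.93 M tags. The part of these depths in the results was not tested. In neuron RNA the 6 excitatory markers summed to 2890 to 3450 CPM in the libraries labelled control and 2550 to 2930 in those labelled cKO, the 7 inhibitory markers to 523 to 619 and 521 to 675, the 7 oligodendrocyte markers to 114 to 132 and 127 to 134, the 6 astrocyte markers to 27.2 to 34.4 and 27.1 to 29.5, and the 5 microglial markers to 9.08 to 9.7 and 8.12 to 9.31.

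Over the 1610 domains each library labelled cKO had shorter H3K4me3 than all 4 labelled control. The mean covered length per domain, the number of bases of the domain under a peak, was 5494, 5557, 5618 and 5624 bp in control replicates 1 to 4. It was 3720, 4222, 4115 and 4113 bp in cKO replicates 1 to 4. The means were 5573 ± 60.5 bp and 4042 ± 221 bp (SD, n = 4 each), a difference of -27.5%. The libraries split over 2 sequencing lanes, as their headers name them, and the difference was -27.7% within lane 1 and -26.9% within lane 2. Lane 2 held only 1 library of each genotype. The domains held 19.9% of the covered H3K4me3 length of all regions in control libraries and 16.9% in cKO libraries.

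**Figure D1:**
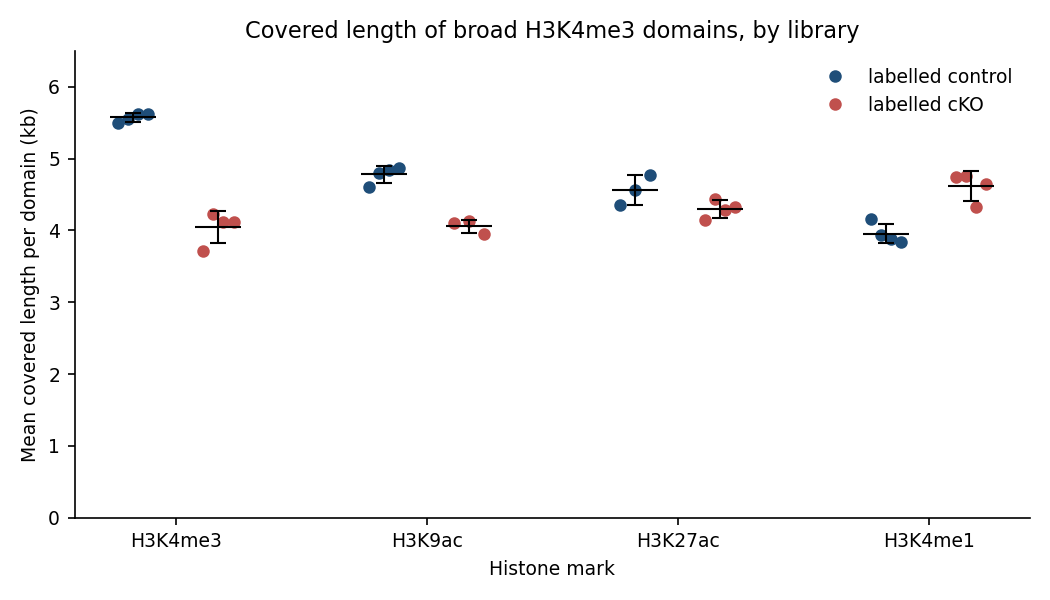
Mean covered length per broad domain (kb) in each library for the 4 histone marks, with points for libraries labelled control (blue) and labelled cKO (red) and bars for the mean ± SD of each group. For H3K4me3, H3K9ac and H3K4me1 the 2 groups do not overlap, and for H3K27ac they do through control replicate 1 (4347 bp).

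Because control lengths chose the domains, some shortening in the other group follows from the choice alone. Choosing the domains on 3 control libraries and reading the fourth left 1537 to 1606 domains. The library left out averaged 5417, 5459, 5548 and 5549 bp for control replicates 1 to 4, against 3699 to 4241 bp for the cKO libraries at the same domains. In 93.0% to 95.7% of those domains all 4 cKO libraries were below the library left out, with median log2 differences of -0.39 to -0.41. The same share was not computed over all regions. The library left out also shared its input with the 3 that chose the domains, so these values remain a description.

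Each domain kept part of its H3K4me3 in the cKO libraries. The share of the control length kept was 46.4% at the 5th percentile, 64.1% at the 25th, 74.3% at the median, 84.1% at the 75th and 94.9% at the 95th. Under 50% was kept at 124 domains, 50 to 75% at 717, 75 to 95% at 691, 95 to 105% at 77 and more at 1. All 4 cKO libraries lay below all 4 control libraries at 1454 domains (90.3%), against 23.3% of all regions, and above them at 1, against 1.01%. These counts rest on the values that chose the domains.

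A set of domains chosen without favour to a genotype gave a test. Regions merged from all 8 H3K4me3 libraries with a peak in each and a mean length of at least 4000 bp over all 8 numbered 1147. limma on log2(covered length + 100 bp) called 716 of them (62.4%) shorter in the libraries labelled cKO at an adjusted p under 0.05, where 9.29% of all 43584 regions tested were called shorter. It called 0 longer, where 1.45% of all regions were called longer. The median log2 difference was -0.37 in these domains and -0.01 over all regions. Leaving out any 1 library gave 596 to 715 calls.

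H3K4me3 lay in more and smaller pieces in the cKO libraries. The mean number of H3K4me3 peaks per domain was 1.66 to 1.92 in control libraries and 2.18 to 2.46 in cKO libraries. Only a single peak touched 43.4% to 54.5% of the domains in control libraries and 30.1% to 38.0% in cKO libraries. The ranges of the 2 genotypes did not overlap in either measure. Long control H3K4me3 peaks chose the domains, so a difference in this direction follows in part from the choice. Neither measure was computed over all regions.

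The H3K4me3 difference lay mostly on the side of the gene body, where most of the domain length lay too. On both sides of the start all cKO libraries lay below all control libraries. The H3K4me3 values here rest on the control peaks that chose the domains. In the 792 domains with 1 coding start, H3K4me3 covered 1286 ± 12.9 bp before the start in control libraries and 1157 ± 40.2 bp in cKO libraries (SD, n = 4 each). After the start it covered 4196 ± 40.8 bp and 2828 ± 169 bp. At the start itself H3K4me3 was present in 97.5% of these domains in control and 96.4% in cKO libraries. It was present 2 kb into the gene in 95.5% and 72.4%, at 4 kb in 53.3% and 15.9%, and at 6 kb in 19.3% and 6.47%.

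**Figure D2:**
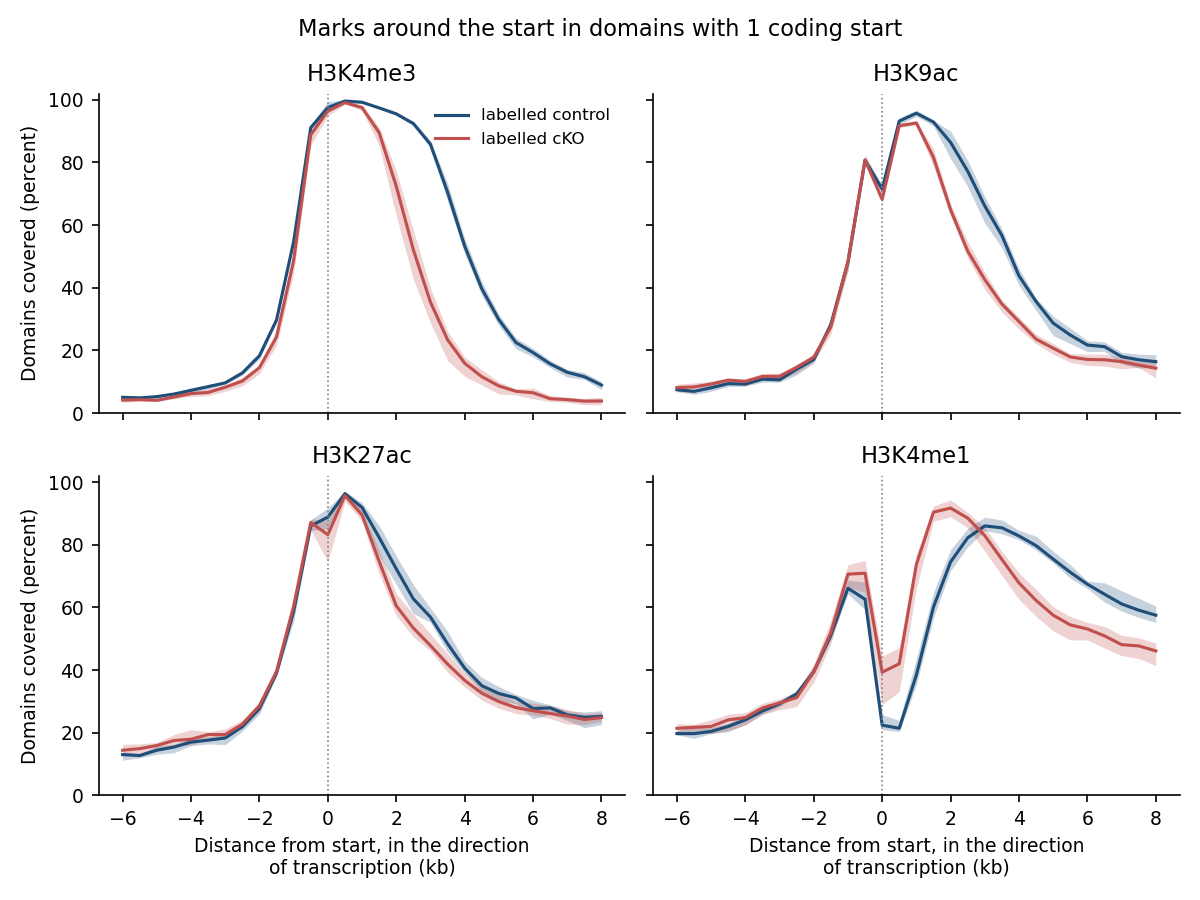
Percent of the 792 domains with 1 coding start that each mark covers, by distance from the start in the direction of transcription (kb), for libraries labelled control (blue) and cKO (red); lines are means over libraries and bands run from the lowest to the highest library. H3K4me3 is alike at the start (97.5% and 96.4%) and differs at 4 kb into the gene (53.3% and 15.9%), while H3K4me1 at 1 kb is present in 38.4% and 73.7%.

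H3K9ac was shorter over the domains as well. The mean covered length was 4605, 4803, 4837 and 4874 bp in control replicates 1 to 4 and 4098, 4126 and 3956 bp in cKO replicates 1, 2 and 4. The group means were 4780 ± 120 bp (n = 4) and 4060 ± 91.3 bp (n = 3), a difference of -15.1% with no overlap. Within lane 5, with only 1 library of each genotype, it was -11.0%, and within lane 6 -16.5%. limma called 213 domains (13.2%) shorter, against 1.57% of all regions tested, and 0 longer, against 0.46%. The median log2 difference was -0.21 over the domains and -0.02 over all regions. All cKO libraries lay below all control libraries at 1008 domains (62.6%), against 10.6% of all regions, and above them at 3 (0.186%), against 4.81%. The number of calls depended on single libraries: it was 24 without cKO 4, 55 without cKO 1, 65 without cKO 2, 80 without control 2, 88 without control 3, 87 without control 4 and 188 without control 1. It was 127 when 2 kb was added on each side, and 108 in the domains chosen on both genotypes.

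The H3K9ac difference was also mostly on the gene side. Before the start it covered 1080 bp on average in control and 1040 bp in cKO libraries, and after the start 3592 ± 99.3 bp and 2900 ± 79.4 bp. At 2 kb into the gene H3K9ac was present in 86.4% of the domains with 1 coding start in control libraries and 64.9% in cKO libraries.

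The 3 domains with the smallest adjusted p for H3K9ac lay at Ppp3ca, Atp2b1 and Eepd1. At one end of Ppp3ca, the catalytic subunit of calcineurin, H3K9ac covered 7895, 8285, 8576 and 8599 bp in control libraries and 3922, 4067 and 4263 bp in cKO libraries. The difference was -1.01 (SE 0.06, limma adjusted p = 0.001). At Atp2b1 it covered 6435, 7168, 7629 and 7396 bp and 3004, 2437 and 2805 bp, a difference of -1.35 (SE 0.1, limma adjusted p = 0.0022). At Eepd1 it covered 3195, 2870, 3288 and 3762 bp and 1117, 1249 and 1046 bp (-1.45, SE 0.11, limma adjusted p = 0.0026). H3K4me3 at these domains kept 50.5%, 38.5% and 45.7% of its control length. The 3 H3K9ac calls held without each library in turn.

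H3K27ac differed least between the groups. The mean covered length was 4347, 4563 and 4772 bp in control replicates 1, 3 and 4 and 4141, 4435, 4280 and 4330 bp in cKO replicates 1 to 4. The means were 4561 ± 213 bp (n = 3) and 4297 ± 122 bp (n = 4), and the groups overlapped (-5.79%). The difference was -3.74% within lane 4 and -9.79% within lane 5, which held only 1 control library. The overlap came from control 1 alone: without it the difference was -7.95%, with control libraries at 4563 and 4772 bp and cKO libraries at 4141 to 4435 bp. The name of this library's file carries the number 2, and its label was followed. limma called 23 of 1608 domains tested (1.43%) shorter, against 0.646% of all regions, and 0 longer, against 0.187%. The median was -0.06 over the domains and -0.02 over all regions. All cKO libraries lay below all control libraries at 380 domains (23.6%), against 7.48% of all regions, and above them at 31 (1.93%), against 2.32%. The calls were 12 without cKO 1, 20 without cKO 2, 5 without cKO 3, 7 without cKO 4, 4 without control 1, 3 without control 3 and 1 without control 4.

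The 3 domains with the smallest H3K27ac p were a domain inside Lratd2, one end of Bhlhe40, which encodes a transcriptional repressor, and the starts of Cpsf4 and Ptcd1. Inside Lratd2 H3K27ac covered 3655, 3523 and 3533 bp in control and 2660, 2698, 2761 and 2823 bp in cKO libraries (-0.37, SE 0.03, limma adjusted p = 0.0067). At Bhlhe40 it covered 6278, 6401 and 6628 bp and 4909, 5176, 5083 and 5147 bp (-0.34, SE 0.03, limma adjusted p = 0.011), and H3K4me3 there kept 48.0%. H3K9ac at Bhlhe40 fell too, from 6680, 7649, 7346 and 7724 bp to 3570, 4087 and 4704 bp (-0.83, limma adjusted p = 0.02), a call lost without cKO 1, cKO 2, control 2, control 3 or control 4 (highest adjusted p 0.081). Its RNA was at 101, 89.8 and 92.1 CPM in control and 54.7, 63.4 and 71.8 CPM in cKO neurons (-0.57, edgeR adjusted p = 0.023), a call lost without cKO 1, cKO 2 or control 3 (highest adjusted p 0.092), and differed by -0.30 in whole CA (edgeR adjusted p = 0.11). At Cpsf4 and Ptcd1 it covered 3369, 3459 and 3328 bp and 2198, 2299, 2040 and 1966 bp (-0.65, SE 0.06, limma adjusted p = 0.014). The H3K27ac calls inside Lratd2 and at Bhlhe40 were lost without control 3 or control 4, and that at Cpsf4 and Ptcd1 without any 1 of the control libraries. The highest adjusted p of these 3 calls without 1 library was 0.057, 0.08 and 0.088.

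H3K4me1 went the other way and was longer over the domains in the libraries labelled cKO. The mean covered length was 4154, 3941, 3886 and 3844 bp in control replicates 1 to 4 and 4748, 4756, 4325 and 4642 bp in cKO replicates 1 to 4. The means were 3956 ± 138 bp and 4618 ± 202 bp (SD, n = 4 each), a difference of 16.7% with no overlap. It was 14.3% within lane 2, which held only 1 library of each genotype, and 17.6% within lane 3. limma called 152 domains (9.44%) longer, against 0.866% of all regions tested, and 16 shorter (0.994%), against 0.285%. The median log2 difference was 0.15 over the domains and 0 over all regions. All cKO libraries lay above all control libraries at 525 domains (32.6%), against 4.32% of all regions, and below them at 57 (3.54%), against 1.38%. The calls of longer domains were 95 without cKO 1, 85 without cKO 2 and 94 without cKO 4, and 125 to 175 without any other library. Calls of shorter domains were 9 without control 1 and 10 without control 2.

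H3K4me1 was higher in the middle of the domains and lower at and beyond their edges in the cKO libraries. At the centre H3K4me1 covered 56.6% to 63.7% of the domains in control libraries and 79.2% to 84.9% in cKO libraries. At the edge the order was reversed, with 87.6% to 90.7% in control and 73.3% to 82.2% in cKO libraries, and 1 kb outside it was 52.4% to 55.3% and 37.1% to 44.3%. None of these ranges overlap between genotypes. Over the same positions H3K4me3 covered 99.3% to 99.6% of the domains at the centre in control and 80.0% to 88.0% in cKO libraries. At the edge it covered 65.8% to 75.8% and 25.5% to 36.6%, and outside 9.04% to 10.7% and 3.14% to 4.25%. The control H3K4me3 peaks set these positions, so the H3K4me3 values follow in part from the choice of domains. H3K9ac covered 91.0% to 93.4% and 77.9% to 80.8% at the centre and 43.1% to 49.3% and 34.3% to 40.4% at the edge. With 2 kb added on each side of the regions, 92 domains in place of 16 were called shorter for H3K4me1 and 130 in place of 152 longer.

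**Figure D3:**
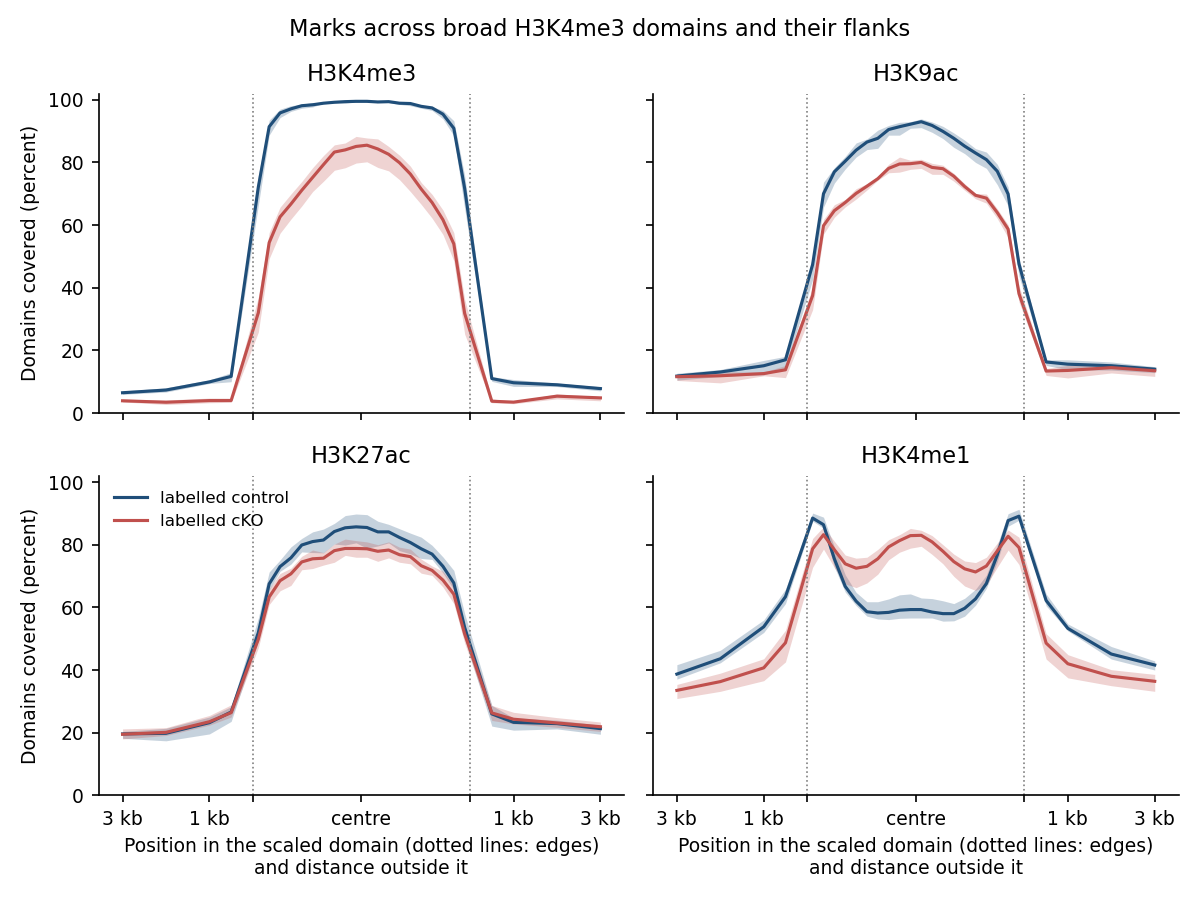
Percent of the 1610 domains that each mark covers at 20 stretches of the domain scaled to one length and at fixed distances outside it (kb), for libraries labelled control (blue) and cKO (red); lines are means over libraries and bands run from the lowest to the highest library. H3K4me1 has a dip at the centre in control libraries (56.6% to 63.7%) where the cKO libraries reach 79.2% to 84.9%, and the cKO libraries are lower at and beyond the edges.

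Seen from the start of a gene, the H3K4me1 pattern sat closer to the start in the cKO libraries. In the 792 domains with 1 coding start it was present at the start in 22.4% in control and 39.3% in cKO libraries, at 1 kb into the gene in 38.4% and 73.7%, and at 2 kb in 74.5% and 91.7%. At 4 kb the order was reversed, with 82.8% and 67.8%. The mean covered length after the start was 2965 ± 99.8 bp and 3487 ± 149 bp, and before it 888 and 1008 bp. Only a single H3K4me1 peak touched 20.7% to 25.3% of all domains in control libraries and 31.1% to 42.7% in cKO libraries.

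Arpp21 had the smallest adjusted p for H3K4me1. In its domain, chr9:112227100-112236863, H3K4me1 covered 3575, 3654, 3489 and 3511 bp in the control libraries and the whole 9764 bp in all 4 cKO libraries. The difference was 1.43 (SE 0.01, limma adjusted p = 3.3e-08). Covered length cannot exceed the region, so libraries at that limit show no spread. H3K4me3 at Arpp21 kept 55.0%, from 9528, 9354, 9301 and 9621 bp to 4668, 5133, 5854 and 5153 bp. The RNA of 2900079G21Rik, which also lies at this domain, was lower in neurons (-1.02, edgeR adjusted p = 0.016), a call lost without cKO 1 or cKO 2 (highest adjusted p 0.085).

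Next came the domain at the ends of Cdk5r1, which encodes the p35 activator of the kinase Cdk5, and Myo1d. H3K4me1 rose there from 4873, 4993, 4997 and 4896 bp to 8551, 8489, 8326 and 8349 bp (0.76, SE 0.01, limma adjusted p = 8.1e-07). At Atp1b1, a subunit of the sodium pump, it rose from 5348, 5406, 5375 and 5224 bp to 7771, 8106, 7869 and 7940 bp (0.56, SE 0.02, limma adjusted p = 2.2e-05), a call lost when 2 kb was added on each side. H3K4me3 kept 80.8% and 68.8% at these 2 domains. The RNA of Gm32391, at the domain of Atp1b1, was lower in neurons (-1.03, edgeR adjusted p = 0.019, lost without cKO 2 or control 3) and in whole CA (-1.42, edgeR adjusted p = 0.0014).

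Among the domains called shorter for H3K4me1, Otud1, which encodes a deubiquitinase, had the smallest adjusted p. It covered 3422, 3647, 3727 and 3525 bp in control and 1368, 1507, 1560 and 1598 bp in cKO libraries (-1.2, SE 0.05, limma adjusted p = 0.00018). H3K9ac at Otud1 fell too, from 2578, 2251, 2550 and 2766 bp to 809, 1220 and 963 bp (-1.28, SE 0.14, limma adjusted p = 0.011; 0.076 without cKO 4). H3K4me3 covered 4942, 4532, 4860 and 4384 bp and 2674, 2871, 2682 and 3008 bp. Lypd1 was shorter by a log2 difference of -0.51 (limma adjusted p = 0.0032), with 4580, 4513, 4525 and 4496 bp against 2992, 3319, 3014 and 3331 bp. At Stx16, a syntaxin, the change was small (-0.12, limma adjusted p = 0.00092), with 4420, 4420, 4420 and 4389 bp against 4115, 4058, 4035 and 4029 bp.

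The H3K4me1 difference was largest in the longest of 3 length classes, between which no difference was tested. In the 47 domains of 10000 bp or more H3K4me1 covered 8223 ± 381 bp in control and 11190 ± 301 bp in cKO libraries (SD, n = 4 each), a difference of 36.1%, and 17 of the 47 were called longer. The difference was 23.1% in the 367 domains of 6000 to under 10000 bp, with 63 called longer, and 12.1% in the 1196 domains of 4000 to under 6000 bp, with 72. H3K4me3 differed by -30.0%, -30.6% and -25.8% in the 3 classes, and H3K9ac by -11.0%, -15.4% and -15.3%. H3K27ac differed by 2.91%, -3.57% and -7.88%, and its groups overlapped in the 2 longer classes. Without control 1 these H3K27ac values were -2.21%, -6.71% and -9.25%, so the positive sign in the longest class rested on that library (10120 bp, against 11790 and 12010 bp in control 3 and 4 and 11420 to 11840 bp in cKO libraries).

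The longest domain, chr13:83712996-83742091, held starts of the non-coding genes C130071C03Rik and Gm52046. H3K4me3 covered 28609, 28268, 28658 and 28756 bp of its 29096 bp in control libraries and 22324, 24834, 24835 and 23274 bp in cKO libraries, so 83.4% was kept. H3K4me1 covered 14610, 11201, 14400 and 9777 bp and 26607, 27527, 24121 and 26590 bp, a rise of 1.08 (SE 0.14, limma adjusted p = 0.025). That call was lost without cKO 1, cKO 2, cKO 4 or control 2 (highest adjusted p 0.089). H3K27ac covered 21391, 28817 and 28878 bp in control replicates 1, 3 and 4, with the first well below the other 2, and 28942, 28827, 29096 and 28883 bp in cKO libraries (limma adjusted p = 0.68).

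Epha4 lay in another of the longest domains, chr1:77499161-77517488, whose promoter is printed above. H3K4me3 covered 16601, 17726, 17856 and 17240 bp in control and 6477, 7511, 7780 and 7701 bp in cKO libraries, so only 42.4% was kept. H3K4me1 rose from 13527, 13410, 13828 and 14022 bp to 16563, 16561, 15880 and 16204 bp (0.25, SE 0.02, limma adjusted p = 0.0032). H3K9ac fell from 13233, 13984, 14809 and 14313 bp to 10703, 10725 and 11274 bp (-0.37, SE 0.06, limma adjusted p = 0.043), a call lost without any 1 library except control 1 (highest adjusted p 0.13). Epha4 RNA was at 559 and 498 CPM in neurons (-0.17, edgeR adjusted p = 0.42) and at 551 and 510 CPM in whole CA (-0.11, edgeR adjusted p = 0.32).

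Others of the longest lay at Khdrbs3, Bcl11b, Zeb2, Grin2b and Camk2a. Khdrbs3 encodes an RNA-binding protein, Bcl11b a transcription factor, Grin2b a subunit of the NMDA receptor and Camk2a a subunit of calcium/calmodulin kinase II. H3K4me3 kept 41.6% at Khdrbs3, 64.9% at Bcl11b, 72.1% at Zeb2, 54.4% at Grin2b and 56.3% at Camk2a. H3K4me1 rose at Khdrbs3 (0.40, SE 0.03, limma adjusted p = 0.0045), Grin2b (0.41, SE 0.04, limma adjusted p = 0.012) and Camk2a (0.21, SE 0.03, limma adjusted p = 0.036). The Camk2a call was lost without any 1 library except control 1 (highest adjusted p 0.11). For Bcl11b and Zeb2 the differences were 0.20 and 0.51 (limma adjusted p = 0.39 and 0.12). No RNA of these 5 genes passed the test in neurons, where adjusted p ran from 0.22 at Bcl11b to 0.84 at Grin2b, or in whole CA, where it ran from 0.075 at Grin2b to 0.85 at Khdrbs3.

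The 5 domains that kept least H3K4me3 all lay inside genes, away from a listed start, and H3K4me1 covered all or nearly all of each in both genotypes. The first lay inside Khdrbs3, chr15:68945855-68956550, next to the long domain at its end. H3K4me3 covered 7738, 8843, 9438 and 8857 bp in control libraries and 622, 476, 240 and 1541 bp in cKO libraries, so 8.25% was kept. H3K4me1 covered all 10696 bp in all 8 libraries. H3K9ac there fell from 4572, 5378, 6652 and 5902 bp to 2416, 2959 and 3348 bp (-0.93, SE 0.16, limma adjusted p = 0.04997), a call lost without any 1 library except control 1 (highest adjusted p 0.13). Others of the 5 lay inside Zbtb16 (11.6% kept), Bcl11a (20.9%) and Prkag2 (23.8%). Inside Bcl11a H3K4me3 covered 6863, 6867, 6875 and 6616 bp and 640, 2114, 2225 and 712 bp, H3K4me1 all 7407 bp in all 8 libraries, and H3K9ac 6934, 6716, 7287 and 6622 bp against 6651, 6872 and 6091 bp. The start of Bcl11a lay in a separate domain that kept 90.2%. H3K9ac inside Bcl11a, Zbtb16 and Prkag2 did not pass the test (limma adjusted p = 0.63, 0.094 and 0.37).

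The mean covered lengths of the 170 domains inside genes differed in the same directions as those of all domains. H3K4me3 differed by -32.4% (5536 ± 68.5 and 3741 ± 260 bp, SD, n = 4 each), against -26.8% in the 1078 domains at coding starts and -16.5% in the 22 domains that touched no gene. H3K4me1 differed by 17.5% inside genes, 15.6% at coding starts and 29.3% in domains without a gene. All 16 domains called shorter for H3K4me1 were at coding starts. H3K9ac differed by -15.4% inside genes, -15.0% at coding starts and -4.83% in domains without a gene, where its groups overlapped. The differences between these classes were not tested.

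At the other end, the 5 domains with the least negative difference kept their whole control length. Atp5g2 kept 107%, with 3916, 4231, 4022 and 4241 bp against 4278, 4468, 4549 and 4305 bp. Mcrs1, which encodes a nuclear scaffold protein, kept 104%, with 4079, 3595, 4248 and 4261 bp against 3957, 4391, 4034 and 4460 bp. Maml3, Sox9 and the domain of Arl5c and Plxdc1 kept 101% each. Arl5c RNA was higher in both tissues, at 2.17, 1.8 and 1.93 CPM against 3.02, 3.21 and 2.84 CPM in neurons (0.62, edgeR adjusted p = 0.043) and by 0.67 in whole CA (edgeR adjusted p = 0.037), and both calls were lost without most single libraries (highest adjusted p 0.16 and 0.11). At the 5 domains the H3K4me3 values of the groups overlapped, or those of the cKO libraries were all higher. No H3K4me1, H3K27ac or H3K9ac difference there passed the test, with the smallest limma adjusted p 0.097 for H3K9ac at Mcrs1. The region at the end of Setd1b, chr5:123133614-123145530, kept 84.9%, with 10646, 10876, 11330 and 11738 bp against 8883, 9758, 9165 and 10049 bp.

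Narrower H3K4me3 regions of the same libraries are described for comparison, in classes cut on the control H3K4me3 length, so the order of the H3K4me3 values rests on the values that made the classes. From the domains through the classes of 2000 to under 4000, 1000 to under 2000 and under 1000 bp, the difference in mean covered length was -27.5%, -14.9%, -7.64% and -8.12% for H3K4me3. It was -15.1%, -8.33%, -1.22% and 8.89% for H3K9ac, and 16.7%, 6.01%, 3.45% and 1.8% for H3K4me1. H3K27ac differed by -5.79%, -7.58%, -5.99% and -2.44%. The share of regions called shorter for H3K9ac was 13.2%, 1.72%, 0.444% and 0.605%, and the share called longer for H3K4me1 was 9.44%, 0.819%, 0.272% and 0.205%. The median spread between libraries also differed by class, at 0.083, 0.109, 0.143 and 0.325 on the log2 scale for H3K9ac and 0.14, 0.197, 0.095 and 0.025 for H3K4me1. In regions under 1000 bp H3K4me1 covered 614.6 bp in control libraries and H3K4me3 541 bp. The part of region width in the H3K4me1 values was not tested. The classes share libraries, and the differences between classes were not tested.

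**Figure D4:**
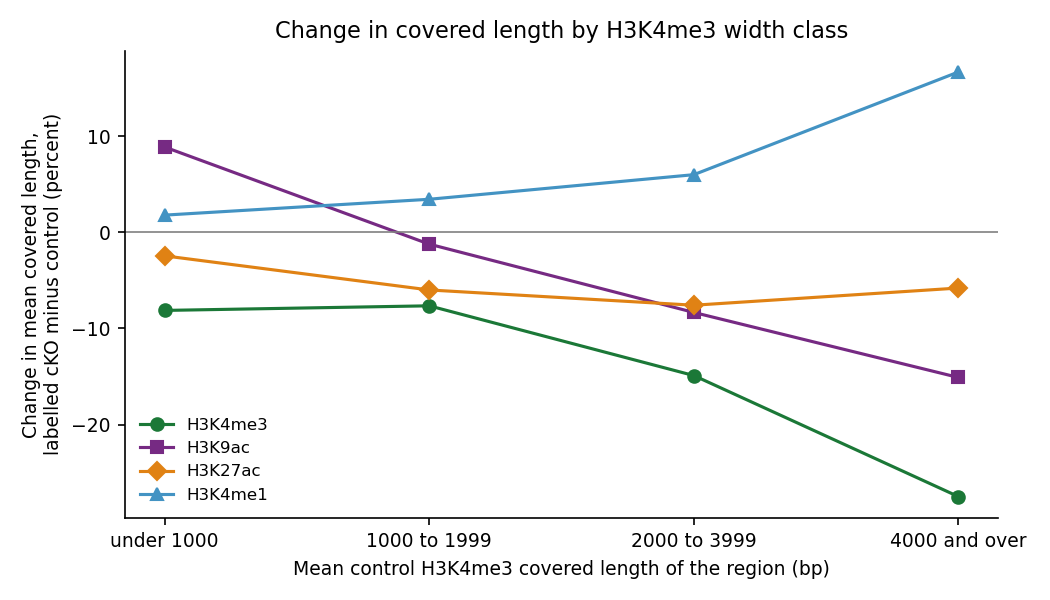
Change in mean covered length (percent, labelled cKO minus control) of the 4 marks in H3K4me3 regions grouped by their mean control H3K4me3 length (bp); each point is the change over all regions of the class. The broad domains (4000 bp and over) show -27.5% for H3K4me3, -15.1% for H3K9ac and 16.7% for H3K4me1, all farther from 0 than in the narrower classes.

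The differences in H3K4me3 and H3K9ac went together across domains. Across the 1610 domains the log2 differences of H3K4me3 and H3K9ac had a Spearman correlation of 0.56, against 0.36 for H3K9ac with H3K27ac, 0.11 for H3K4me3 with H3K27ac and 0.06 for H3K4me3 with H3K4me1. These describe domains, which share libraries and inputs and are not replicates. Split in 3 by the share of H3K4me3 kept, with medians of 59.1%, 74.3% and 88.3%, the domains had median H3K9ac differences of -0.378, -0.211 and -0.113. Calls of shorter H3K9ac numbered 150, 47 and 16 in these groups. The median H3K4me1 difference was 0.148, 0.141 and 0.166, and calls of longer H3K4me1 numbered 66, 48 and 38. Of the 213 domains with shorter and the 152 with longer calls, 27 were in both lists (12.7% of the first, 17.8% of the second). The H3K9ac list shared 9 domains with the 23 of shorter H3K27ac (4.23% and 39.1%).

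RNA from genes with a start in a domain was called lower more often than higher in libraries labelled cKO. Of 1463 such genes 1288 passed the filter on low counts in neurons and 1248 in whole CA. In neurons edgeR called 59 of the 1288 (4.58%) lower, against 2.0% of all genes, and 10 (0.776%) higher, against 0.744%. The median log2 difference was -0.048, against 0.019 over all genes. In whole CA it called 87 of the 1248 (6.97%) lower, against 2.79%, and 26 (2.08%) higher, against 1.38%, with a median of 0.003 against -0.003. Genes at domains also had higher counts, with a median log2 CPM of 6.2 in neurons, against 3.41 over all genes. In whole CA it was 6.21, against 4.3. The part of the count level in these shares was not tested. In these bulk samples fewer cells of a type and less RNA per cell cannot be told apart. In whole CA the 5 microglial markers summed to 262 to 322 CPM in the libraries labelled control and 233 to 257 in those labelled cKO, with 1 of the 5 called lower, and the 6 astrocyte markers to 1470 to 1760 and 1360 to 1510, with 1 of the 6. The 6 excitatory markers summed to 6680 to 7500 and 6190 to 7150, with 1 called lower. The part of these shifts in the counts was not tested.

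These counts rested partly on single libraries. In neurons there were 25 lower genes without cKO 1, 28 without cKO 2, 36 without control 3 and 41 to 63 without any other library. The higher genes were 0 without cKO 1, 3 without cKO 2, 2 without control 2 or control 3, and 7 to 9 otherwise. In whole CA there were 69 to 95 lower and 19 to 31 higher genes without any 1 library. By sequencing lane, which for whole CA only the names of the count files give, replicates 1 to 3 gave 35 lower and 10 higher genes and replicates 4 to 6 gave 51 and 4. Genes under H3K4me3 regions of 2000 to under 4000 bp were called lower in 1.53% of cases in neurons and 2.14% in whole CA.

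Neurod6 had the smallest p at a domain in neurons. It was at 135, 178 and 148 CPM in control and 34.2, 31.9 and 30.9 CPM in cKO libraries (-2.24, SE 0.11, edgeR adjusted p = 3e-05). In whole CA its median was 389 CPM (330 to 457) in control and 111 CPM (81.7 to 164) in cKO libraries (-1.78, SE 0.14, edgeR adjusted p = 1.5e-07). At its domain, chr6:55676428-55682949, mean H3K4me3 was 6323 bp in control and 2856 bp in cKO libraries (45.2% kept), and mean H3K4me1 rose from 1529 to 5997 bp (1.91, limma adjusted p = 0.011). H3K27ac and H3K9ac there did not pass the test (limma adjusted p = 0.68 and 0.14). The CG-poor promoter of this gene is the first printed above.

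Sstr4, which encodes a somatostatin receptor, was at 76.6, 62.9 and 51.5 CPM in control and 15.8, 15.1 and 17.8 CPM in cKO neurons (-1.97, SE 0.14, edgeR adjusted p = 0.00013), and fell by 1.57 in whole CA (edgeR adjusted p = 4.6e-09). H3K4me3 kept 41.2% at its domain, and H3K9ac fell by 0.83 (limma adjusted p = 0.0028). Htr1a, a serotonin receptor, was at 41.4, 45.0 and 39.0 CPM and 13.9, 15.6 and 16.2 CPM in neurons (-1.46, edgeR adjusted p = 7.5e-05), and fell by 1.64 in whole CA (edgeR adjusted p = 1.4e-09). Its domain kept 46.8% of the H3K4me3, and H3K9ac fell by 0.74 (limma adjusted p = 0.015). Npy2r, a neuropeptide Y receptor, fell by 0.94 in neurons and 1.37 in whole CA (edgeR adjusted p = 0.00098 and 1.9e-09), with 58.3% kept. Sstr3 fell by 0.86 and 0.77 (edgeR adjusted p = 0.0013 and 2.8e-07), with 66.9% kept, and the orphan receptor gene Gpr22 by 1.39 and 1.57 (edgeR adjusted p = 0.0027 and 3.5e-07), with 55.6% kept. Htr1b and Gpr63, which also encode G protein-coupled receptors, were lower in both tissues too and were named after their values were seen. Htr1b differed by -0.60 and -0.76 (edgeR adjusted p = 0.048 and 0.0027) and Gpr63 by -0.51 and -0.41 (edgeR adjusted p = 0.015 and 0.036). The Htr1b neuron call was lost without any 1 library except control 1 (highest adjusted p 0.18), while its whole CA call was kept. The Gpr63 neuron call was lost without cKO 1, cKO 2, control 2 or control 3 (highest adjusted p 0.072). Its whole CA call was lost without each of 9 of the 12 libraries (highest adjusted p 0.09). The share of receptor genes among the lower genes was not tested.

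Lgi1 encodes a secreted synaptic protein. It was at 155, 183 and 170 CPM in control and 64.7, 64.5 and 61.6 CPM in cKO neurons (-1.41, SE 0.09, edgeR adjusted p = 4.8e-05). In whole CA its median was 158 CPM (143 to 168) and 59.1 CPM (53.2 to 62.7), a difference of -1.41 (SE 0.06, edgeR adjusted p = 1.4e-11). Its domain kept 69.7% of the H3K4me3, and H3K4me1 rose by 0.92 (limma adjusted p = 0.038). Gpm6a, a neuronal membrane glycoprotein, had a median of 1690 CPM (1480 to 1790) in control and 826 CPM (640 to 906) in cKO whole CA (-1.09, SE 0.07, edgeR adjusted p = 2.1e-08). Its domain kept 70.8%, and H3K4me1 there rose by 1.59 (limma adjusted p = 0.0065). Gpm6a was also tested in neuron RNA and was not called lower there. In both genes the groups did not overlap in the tissue for which values are given, and no RNA call of these 2 genes was lost without any 1 RNA library.

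Other lower genes of smallest p in neurons were Zmynd8 (-1.18, edgeR adjusted p = 0.00037), a reader of histone modifications, and Adamts1 (-1.33, edgeR adjusted p = 0.00016), a secreted protease. With them came the non-coding 9430053O09Rik (-2.37, edgeR adjusted p = 7.3e-05) and Gm11266 (-1.47, edgeR adjusted p = 0.00059). Zmynd8 kept 44.2% of its H3K4me3, but Adamts1 89.6% and 9430053O09Rik 88.4%. Lower RNA thus also occurred where most of the domain was kept.

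**Figure D5:**
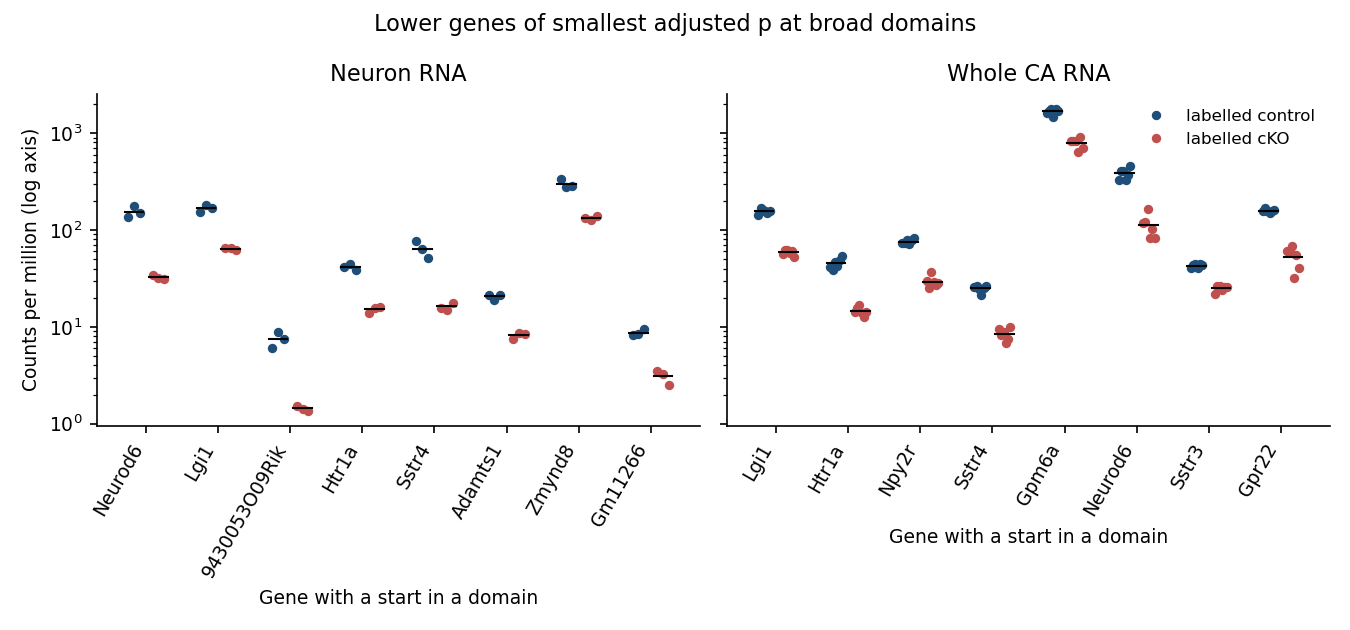
Level (CPM, log axis) of the 8 lower genes with the smallest adjusted p among genes with a start in a domain, in neuron RNA (left) and whole CA RNA (right); points are libraries labelled control (blue) and cKO (red), and bars are group means. In every gene shown the 2 groups are apart, as for Neurod6 in neurons with 135 to 178 CPM against 30.9 to 34.2 CPM.

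The lower genes of both tissues overlapped. Among the 1247 genes tested in both, 57 were lower in neurons and 87 in whole CA, and 37 were in both lists (64.9% and 42.5%). Besides those above they included Arpp21 (-0.57 and -0.28, edgeR adjusted p = 0.0063 and 0.0029), Hpca (hippocalcin, -0.45 and -0.25, edgeR adjusted p = 0.029 and 0.004), Gabra5 (a subunit of the GABA-A receptor, -0.42 and -0.36, edgeR adjusted p = 0.048 and 0.00082), Chgb (chromogranin B, -0.46 and -0.44, edgeR adjusted p = 0.047 and 0.0017) and Nrp1 (neuropilin 1, -0.64 and -0.60, edgeR adjusted p = 0.01 and 1.1e-06). Their domains kept 55.0%, 45.9%, 51.8%, 46.2% and 52.3% of the H3K4me3. These 5 were named after their values were seen. All 5 neuron calls were lost without cKO 2, and Hpca, Gabra5, Chgb and Nrp1 without other libraries too (highest adjusted p 0.051 to 0.2 over the 5), while no whole CA call of the 5 was lost without 1 library. Of the 1247 genes none was lower in 1 tissue and higher in the other.

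Domains of the lower genes kept less H3K4me3 than those of all genes tested. The median share kept was 65.9% for the genes lower in neurons and 63.0% for those lower in whole CA, against 74.9% for all genes tested. H3K9ac was called shorter at 25.9% and 22.1% of these domains, against 12.6% and 12.5%, and H3K4me1 longer at 20.7% and 19.8%, against 8.96% and 8.87%. For the 26 genes higher in whole CA the median kept was 75.6%. H3K9ac was called shorter at 11.5% of their domains and H3K4me1 longer at 15.4%. For the 10 genes higher in neurons the median kept was 77.3%, with H3K9ac called shorter at 2 domains and H3K4me1 longer at 0. Domains of the lower genes were also longer in control libraries. Their median H3K4me3 length was 5568 bp for neurons and 5948 bp for whole CA, against 5061 and 5060 bp for all genes tested. These shares, and the part of domain length in them, were not tested.

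Fewer genes with a start in a domain were called higher. In neurons the 8 with the smallest p were Gm26559 (1.16, edgeR adjusted p = 0.0086), 4933406C10Rik, Pcsk2os1, 2610316D01Rik, 1700034H15Rik, Bbc3, Pbld2 and Mdga2 (0.40 to 0.69). The first 5 are long non-coding RNA genes in RefSeq, whose reads cannot be told apart from those of overlapping genes with a library kit that does not mark strand. All 8 calls were lost without 1 or more of the 6 libraries. In whole CA the 8 were Cnih3, Ankrd33b, Stum, AU040320, Smarcd1, Sec14l1, Usp2 and Grasp. Cnih3, an auxiliary protein of AMPA receptors, had a median of 85.3 CPM (76.1 to 93.9) in control and 122 CPM (106 to 129) in cKO libraries (0.50, SE 0.06, edgeR adjusted p = 6.1e-05), while its domain kept 69.9% of the H3K4me3 and H3K9ac fell by 0.42 (limma adjusted p = 0.025). The other 7 rose by 0.24 to 0.50. Among the 1247 genes tested in both tissues, all with a start in a domain, only 2700046G09Rik was higher in both, and it was named after its values were seen.

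The gene lists were chosen with earlier results of these data known. No list member with a start in a domain was called higher in RNA, in lists of at most 25 such genes. The share called higher over all genes at domains was small too, at 0.776% in neurons and 2.08% in whole CA. No list was tested against these shares or those below. The counts below stand against 4.58% of genes at domains lower in neurons and 6.97% in whole CA, and against 9.44% of all domains longer for H3K4me1 and 13.2% shorter for H3K9ac. Of the 25 pyramidal neuron regulators 1 (Neurod6) was lower in neurons and 3 (Neurod6, Etv1, Emx2) in whole CA, with list medians of -0.12 and -0.09. Emx2 was lower by a log2 difference of -0.30 (edgeR adjusted p = 0.045) and its call was lost without any 1 library except cKO 3 (highest adjusted p 0.11). H3K4me1 was called longer at 7 of the 25 domains, shorter at 0, and H3K9ac shorter at 2, a share below that of all domains. Zbtb18, a repressor of cortical neurons, was 1 of the 7, with an H3K4me1 rise of 1.94 (limma adjusted p = 0.011) and 60.1% of the H3K4me3 kept, while its RNA was at 371 and 355 CPM in neurons (-0.06, edgeR adjusted p = 0.82). Etv1, an ETS factor, kept 44.9% of its H3K4me3, and its RNA differed by -0.49 in neurons (edgeR adjusted p = 0.071) and -0.58 in whole CA (edgeR adjusted p = 0.0037).

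Of the 10 synaptic plasticity genes 2 were lower in neurons (Nrgn, Lrrtm1) and 2 in whole CA (Gria2, Lrrtm1). Lrrtm1, an adhesion protein of excitatory synapses, was lower by -0.48 in neurons and -0.38 in whole CA (edgeR adjusted p = 0.023 and 0.016), with H3K4me1 longer by 1.37 and H3K9ac shorter by -0.38 (limma adjusted p = 0.0048 and 0.03) and 65.9% of the H3K4me3 kept. Its neuron call was lost without cKO 1, cKO 2 or control 2 (highest adjusted p 0.12), and that of Nrgn (-0.43, edgeR adjusted p = 0.042) without any 1 library (0.063 to 0.17). Gria2, a subunit of the AMPA receptor, kept 45.3% of its H3K4me3 (11082.5 to 5019 bp on average), and its RNA differed by -0.12 in neurons (edgeR adjusted p = 0.77) and -0.38 in whole CA (edgeR adjusted p = 0.0027). Bdnf, a neurotrophin, kept 97.6%, and its RNA differed by -0.20 and -0.07 (edgeR adjusted p = 0.42 and 0.80).

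None of the 9 immediate early genes passed the RNA test in either tissue, with list medians of -0.17 and 0.06. H3K9ac was called shorter at 2 of their domains. These were Npas4 (-0.70, limma adjusted p = 0.034), with 46.3% of the H3K4me3 kept, and Homer1 (-0.78, limma adjusted p = 0.023), with 68.7% kept. Junb, Egr2 and Fos kept 94.8%, 99.9% and 90.6%, while Nr4a1 kept 46.4%. None of the 8 ion channel genes passed the RNA test either. H3K9ac was called shorter at 3 of their domains, those of the potassium channels Kcnd2 (-0.67, limma adjusted p = 0.0091), Kcnh7 (-0.50, limma adjusted p = 0.024) and Kcnj3 (-0.42, limma adjusted p = 0.021), which kept 34.9%, 50.7% and 55.1% of the H3K4me3. The H3K9ac calls of both lists were not followed without single libraries. Over all domains such calls fell from 213 to 24 without cKO 4. Of the 5 hippocampal field markers Amigo2 was lower in both tissues (-0.62 and -0.70, edgeR adjusted p = 0.0049 and 2.2e-06), with 46.8% kept, and Nectin3 in whole CA (-0.39, edgeR adjusted p = 0.0017), with 78.3% kept. Of the 3 interneuron markers Cck was lower in neurons (-0.58, edgeR adjusted p = 0.0057) and differed by -0.19 in whole CA (edgeR adjusted p = 0.09). Neither Kmt2a, Kmt2d nor any of the 4 housekeeping genes passed the RNA test, and H3K4me3 at Gapdh kept 93.2%.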

How the data were processed

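The members and gene lists were chosen with earlier results of these data known. Reads were aligned to mm10 (GRCm38) and SAMtools and MACS2 were used, per the submitters' processing notes. Peaks were called per library against 1 input per genotype with MACS 2.1.1.20160309 (H3K4me3) or 2.1.0.20140616 (other marks), in broad mode for H3K4me1 only, per the file headers. The deposited peak lists give positions in bp, a fold enrichment and -log10 q-values per peak, made by the authors. The deposited RNA tables hold raw counts per gene, and the counting tool and its strand setting are not given in the sources used here.

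From these files the bases of each region under a library's merged peaks were summed (numpy 2.4.6, pandas 2.3.3), as covered length, and compared over all regions with a peak in at least 3 libraries with limma 3.58.1 on log2(covered length + 100 bp). Counts of all genes were tested with edgeR 4.0.16 (quasi-likelihood, TMM, low counts filtered; R 4.3.3). Adjusted p is Benjamini-Hochberg over all features tested, with a threshold of 0.05. Scripts were tested on simulated data. Libraries were grouped by their labels. Genes were assigned to regions by RefSeq GRCm38.p6 positions, starts where the promoter table lists one.

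Regions named are the 8 longest, the 3 on each side of the threshold, the 5 at each end of the H3K4me3 difference, and up to 3 per direction and mark of smallest adjusted p. Genes named are those of these regions, list members in a domain, and the 8 lower and 8 higher genes of smallest adjusted p in each tissue; 2 of these regions are not reported here. Alternatives were a threshold of 3000 or 5000 bp, peaks at -log10 q of at least 5, peaks within 1 kb merged, 2 kb flanks, an offset of 1000 bp, centred libraries, domains chosen on both genotypes, a peak in every library, DESeq2 1.42.0, other scaling factors, no filter, lanes, a replicate block and leaving out each library. The gene ends in RNA, flanks and a peak in every library for H3K4me3, and H3K27ac by length class without control 1, were chosen after seeing the data. Covered length measures width, not height, and moves with depth and the calling cutoff.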

Additional observations from a re-analysis of the deposited data

Results flagged for a closer look

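In 7 of 166 groups of 4 to 10 libraries, 1 library lay far from the others by Dixon's test, which chance does in about 1 group in 20. H3K9ac in the domain of C130071C03Rik and Gm52046 was lowest in control 1, at 25848 bp against 27294 to 27344 bp in the other control libraries. H3K9ac inside Lratd2 was lowest in control 1 too, at 3560 bp against 4038 to 4049 bp. H3K4me3 inside Bcl11a was lowest in control 4, at 6616 bp against 6863 to 6875 bp. H3K4me1 was highest in cKO 2 at Atp5g2, where it covered the whole domain of 4655 bp, and at Bhlhe40, at 5207 bp against 3665 to 3759 bp. In whole CA RNA Sstr4 was lowest in control 4, at 21.1 CPM, and Grasp highest in control 1, at 40.1 CPM.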

How the results depend on the processing

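Over the alternatives run, the median H3K4me3 difference of the domains stayed negative, moving from -0.42 to -0.33 at a threshold of 3000 bp, -0.34 with peaks within 1 kb merged or libraries centred, and -0.35 with an offset of 1000 bp (-0.45 to -0.38 without 1 library). The 716 shorter domains chosen on both genotypes were 1481 at 3000 bp, 317 at 5000 bp and 596 to 715 without 1 library. The 213 shorter H3K9ac domains were 132 at 5000 bp, 127 with flanks, 427 with the larger offset, 108 in domains chosen on both genotypes and 24 to 188 without 1 library. The 23 shorter H3K27ac domains were 8 with flanks, 14 with the larger offset, 4 with a peak in every library and 1 to 20 without 1 library. The 152 longer H3K4me1 domains were 74 at -log10 q of at least 5 and 85 to 175 without 1 library, and the 16 shorter ones 4 at 5000 bp, 3 at -log10 q of at least 5, 92 with flanks, 26 with centred libraries, 4 in domains chosen on both genotypes and 9 to 17 without 1 library. At -log10 q of at least 5 only 621 domains could be tested for H3K4me1, and the difference at Stx16 was 2.66 in place of -0.12. At that cutoff 502 of all 8714 regions tested were called longer, against 252 of 29116 in the main setting. The median log2 difference was 2.15 over the domains and 1.13 over all regions, against 0.15 and 0 in the main setting. The rise at that cutoff was thus not confined to the domains. The cause was not tested.

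The 59 lower genes in neurons were 111 with DESeq2 and 25 to 63 without 1 library, and the 10 higher ones 6 in domains chosen on both genotypes and 0 to 9 without 1 library. In whole CA the 87 lower genes were 35 in replicates 1 to 3, 51 in replicates 4 to 6 and 69 to 95 without 1 library. The 26 higher genes were 40 with gene ends, 44 with DESeq2, 10 and 4 in the 2 sets of replicates and 19 to 31 without 1 library. Of the alternatives of named called results, 146 of 172 kept their call for H3K4me1, 24 of 45 for H3K27ac, 68 of 98 for H3K9ac, 381 of 510 in neuron RNA and 902 of 1008 in whole CA RNA. Histone calls at genes named only for their RNA or for a list were not among these.

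Deviations of same-numbered libraries had r of -0.089 to 0.079 for the histone marks, -0.46 to 0.527 for RNA of neurons and -0.115 to 0.348 for that of whole CA, where 5 of 6 pairs were above 0.1. In no data set was every pair above 0.1 and no label gives a shared source, so the numbers were not taken to pair libraries. With a replicate block the calls were 380 for H3K4me3, 0 for H3K9ac, 0 for H3K27ac (0 also with control 1 paired with cKO 2), 17 longer and 2 shorter for H3K4me1, 39 lower and 3 higher in neurons and 110 lower and 40 higher in whole CA. Covered length is limited by depth and by the width of the region, and RNA reads by the whole gene being counted.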
